A study of Mus musculus with 30 samples.

Results

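Creatine kinase and the muscle forms of other energy enzymes were followed through mouse leg muscle cell cultures on Affymetrix A and B chips. The 10 genes were Ckm, Ckb, Ckmt2, Ampd1, Ampd3, Ak1, Mb, Cox6a2, Cox7a1 and Cox8b. Their members are the probe sets that the platform annotation gives to 1 of these genes and to no other gene, which came to 14 of the 45137 probe sets on the chips, 11 on A and 3 on B. Of the 14, 10 passed the filter on low values and were tested, and they covered 8 of the 10 genes. The probe sets of Ckmt2 and Cox7a1, and a dim further probe set each of Ak1 and Mb, lay below the filter and are described by their values.

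Muscle contraction spends ATP in bursts. Creatine kinase passes the phosphate of phosphocreatine to ADP, adenylate kinase turns a pair of ADP into ATP and AMP, and AMP deaminase converts the AMP to IMP, the entry to the purine nucleotide cycle. Myoglobin binds oxygen inside the fibre, and cytochrome oxidase, the last complex of the respiratory chain, uses that oxygen. Several of these proteins come as a muscle form and a form used more widely: Ckm beside the brain-type Ckb, mitochondrial Ckmt2 beside Ckmt1, Ampd1 beside Ampd3 and Ampd2, Cox6a2 beside Cox6a1, Cox7a1 beside Cox7a2, and Cox8b beside Cox8a. In textbook accounts, differentiating myoblasts take up Ckm while Ckb recedes.

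RNA was measured at 0, 4, 12, 24 and 48 h, with 3 replicates at each hour on each chip, 30 arrays in all. All groups carry the same description, cell cultures of mouse leg muscle, and differ in hour and chip. Strain, age, the medium, the event at 0 h, and whether replicates were separate cultures were not given in the sources used here, so the p-values cover only how far these arrays scatter, and that scatter may be technical. A change was called where the Benjamini-Hochberg adjusted p of the limma fit over all tested probe sets of a chip was under 0.05, and log2 values are of intensity plus a pseudocount of 29 on A and 54 on B.

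The label of muscle was borne out by its markers on the A chip: all 7 skeletal muscle markers (Myog, Myod1, Des, Acta1, Myh3, Chrna1, Tnnt3) passed the filter, and their summed intensity ran from 47270 to 53430 at 0 h, from 61570 to 69660 at 24 h and from 41970 to 68600 at 48 h. Heart and brown fat also use some of the muscle forms. Of the 5 cardiac markers Nppb and Nkx2-5 passed the filter, and Nppa, Myh6 and Tnni3 lay below it. Of the 5 brown fat markers Dio2, Elovl3 and Prdm16 passed it, and Ucp1 (median 8.7) and Cidea (median 7.9) lay below it. The 5 fibroblast markers were all below it, as were the white fat and erythroid markers on the chip (4 of 5 and 3 of 5 listed). Of the endothelial markers Tek (median 127.4) and Kdr (136.8) passed the filter. So did Csf1r (171.6) and Adgre1 (125.5) of the blood and immune markers, and Sox10 (167.1) and Tubb3 (301.5) of the nerve and glia markers. Replicate 3 differed from replicates 1 and 2 over all hours in 33.9% of the probe sets on A and 14.8% on B (lower in 17.5% and 7.37%). Of the 10 members, 3 did, all lower in replicate 3. Changes are therefore also given for replicates 1 and 2 alone. In RNA from whole cultures, a change in the share of cells that express a gene and a change in RNA per cell cannot be told apart.

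By 24 h the muscle creatine kinase Ckm (by its A chip probe set), the general creatine kinase Ckb, myoglobin (Mb) and the muscle cytochrome oxidase subunits Cox6a2 and Cox8b had risen, by 1.91 to 5.28 times in the mean of 3 arrays. At 48 h Mb, Cox6a2 and Cox8b were still higher than at 0 h, while Ckm and Ckb were no longer called. Adenylate kinase Ak1 and the general AMP deaminase Ampd3 showed no called change. In counts, 6 of the 10 members had risen at 24 h against 0 h and none had fallen: 5 of 7 on A, where 2.67% of all probe sets were called and 1.61% were called higher, and 1 of 3 on B, where 0.851% were called and 0.592% were called higher. At 48 h, 4 of the 10 were called, all higher (3 of 7 on A against a background of 2.15%, 1.42% for higher calls, and 1 of 3 on B against 1.13%, 0.666% for higher calls). The F test over all hours called 6 of the 10, where 1.97% on A and 0.896% on B were called: Ckm on A, Ckb, Mb, Cox8b and both Cox6a2 probe sets. For 7 of the 10 (5 of 7 on A, 2 of 3 on B) every 24 h array lay above every 0 h array, as it did for 9.58% of all tested probe sets on A and 8.28% on B. No member was called at 4 h, where none of the chips' probe sets were called (0% on A and B) and 0 members had an unadjusted p under 0.05. At 12 h again 0 members were called by limma (background 0% on A and 0.0074% on B), although 6 had an unadjusted p under 0.05 and 5 were called in replicates 1 and 2 alone, where the background was 4.18% on A and 0.622% on B. The median log2 change of the 10 was −0.05 at 4 h, 0.85 at 12 h, 1.77 at 24 h and 0.77 at 48 h, beside −0.02, 0, −0.03 and 0 over all tested probe sets. The counts rest on few arrays. Without A chip replicate 1 or 2 at 0 h, or replicate 1 or 2 at 24 h, the count at 24 h was 2, and without A chip replicate 1 or 2 at 0 h or 48 h the count at 48 h was 2.

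**Figure D1:**
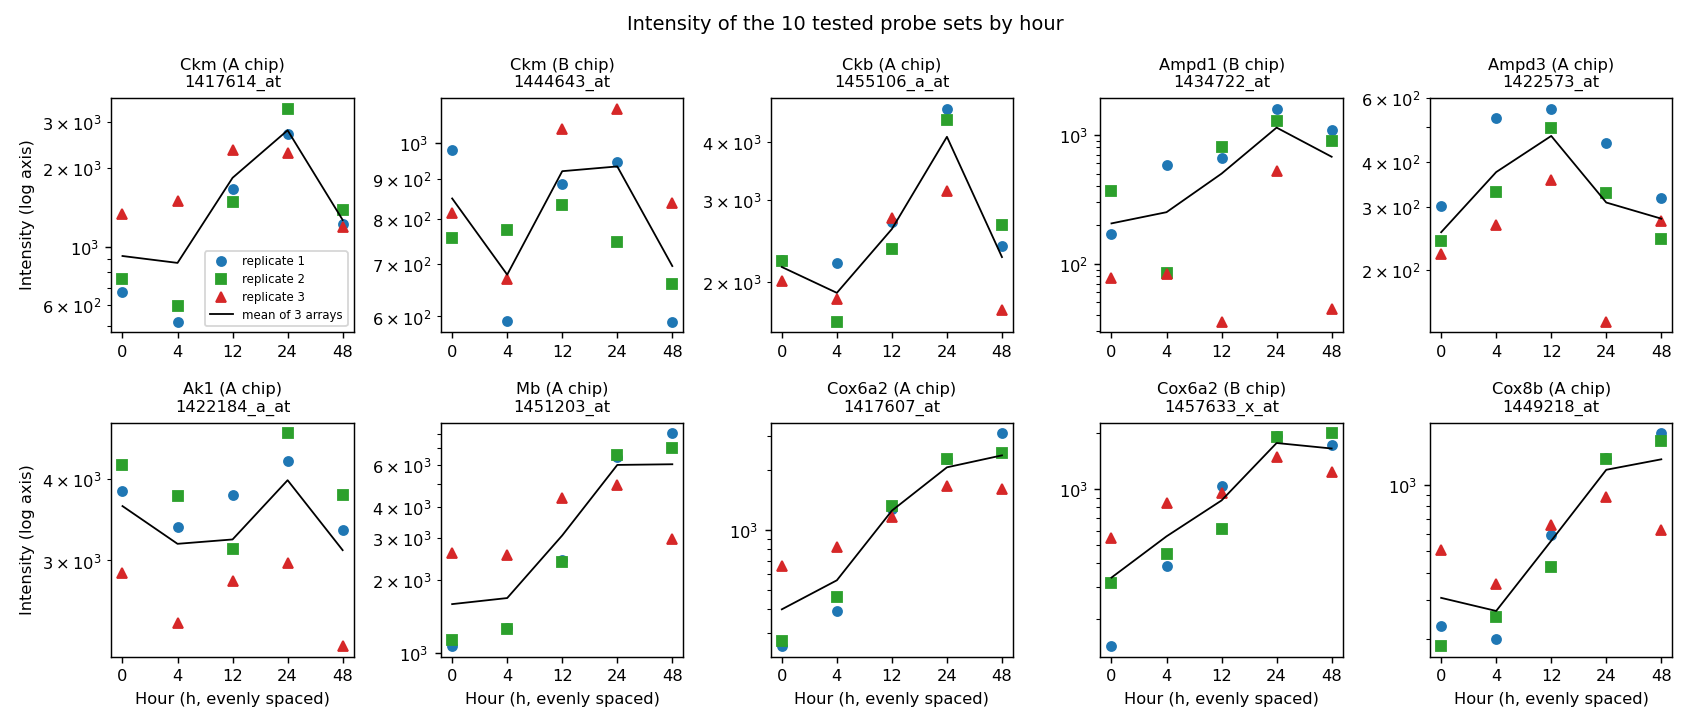
Intensity (log axis) of the 10 tested probe sets at 0, 4, 12, 24 and 48 h, with a symbol for each replicate and a line through the mean of the 3 arrays. Ckm on A and Ckb are highest at 24 h and lower again at 48 h, whereas Mb, both Cox6a2 probe sets and Cox8b stay above their 0 h arrays at 48 h.

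Ckm encodes the cytosolic muscle creatine kinase, the enzyme bound at the M line of the sarcomere and abundant in adult fibres. Its A chip probe set, 1417614_at, read 676, 756 and 1338 at 0 h in replicates 1, 2 and 3. The readings were 520, 594 and 1494 at 4 h, and 1668, 1486 and 2347 at 12 h. They reached 2691, 3365 and 2289 at 24 h and were 1226, 1383 and 1192 at 48 h. Every 24 h array lay above every 0 h array, while at 48 h the arrays overlapped those of 0 h, with replicate 3 the highest at 0 h and the lowest at 48 h. The mean went from 923.3 ± 361.4 (SD, n = 3) at 0 h to 2782 ± 544.1 at 24 h, a ratio of 3.01, and Ckm rose by a log2 change of 1.61 (SE 0.34, limma adjusted p = 0.0202), or 2.03 in replicates 1 and 2 alone. At 48 h the mean was 1267 ± 102.1 and the log2 change of 0.50 was not called (limma adjusted p = 0.536), but in replicates 1 and 2 alone it was 0.84 and was called (limma adjusted p = 0.00284, background 12.4% on A and 6.32% on B). From 24 h to 48 h Ckm was lower in all 3 replicates, with log2 changes of −1.12, −1.26 and −0.92 and a mean of −1.10, which was not called (limma adjusted p = 0.439). The call at 24 h was lost without A chip replicate 1 or 2 at 0 h or replicate 1 or 2 at 24 h, with log2 changes of 1.42, 1.5, 1.62 and 1.46 and limma adjusted p of 0.087, 0.112, 0.0912 and 0.116.

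A further Ckm probe set on the B chip, 1444643_at, did not share the rise from 0 h to 24 h. It read 979, 755 and 814 at 0 h, 592, 774 and 670 at 4 h, and 886, 833 and 1044 at 12 h. At 24 h it read 947, 747 and 1107, and at 48 h 591, 660 and 837. The arrays of every later hour overlapped those of 0 h. Its log2 change was 0.12 (SE 0.19, limma adjusted p = 0.893) at 24 h and −0.27 (SE 0.19, limma adjusted p = 0.576) at 48 h. The mean change at 24 h came from replicate 3, with 0.42 there and −0.05 and −0.02 in replicates 1 and 2, and without the B chip array of replicate 3 at 24 h it was −0.01. Its 12 h arrays all lay above those of 4 h (log2 change 0.41, limma adjusted p = 0.641). From 24 h to 48 h it was lower in replicates 1, 2 and 3, by −0.63, −0.16 and −0.38. The mean of −0.39 was not called (limma adjusted p = 0.411). The chips were normalized separately, so the difference between the probe sets was not tested. Which stretch of the transcript each probe set reads is not used here. Where the A chip probe set showed its rise of 1.95 and 2.11 from 0 h to 24 h in replicates 1 and 2, the B chip probe set showed none.

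**Figure D2:**
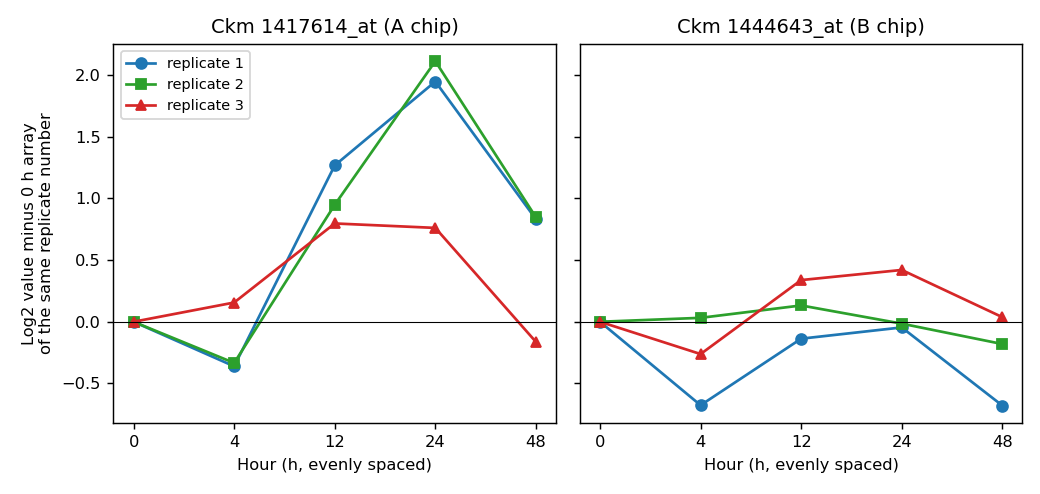
Log2 value of the Ckm probe sets on the A and the B chip at each hour minus the 0 h array with the same replicate number, 1 line per replicate. At 24 h the A chip lines stand at 1.95, 2.11 and 0.76, and the B chip lines at −0.05, −0.02 and 0.42.

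Ckb, the brain-type creatine kinase that myoblasts and many other cells use, moved the same way as Ckm on the A chip. Probe set 1455106_a_at read 2227, 2214 and 2010 at 0 h, 2198, 1640 and 1835 at 4 h, and 2696, 2351 and 2745 at 12 h. At 24 h the readings were 4727, 4459 and 3139, all above every other hour, and at 48 h they were 2390, 2654 and 1734, on both sides of the 0 h arrays. Its mean went from 2150 ± 121.6 (SD, n = 3) to 4108 ± 850.3 at 24 h, and Ckb rose by a log2 change of 0.90 (SE 0.18, limma adjusted p = 0.0167), or 1.04 in replicates 1 and 2 alone. At 48 h the change was 0.05 (limma adjusted p = 0.939). From 24 h to 48 h Ckb was lower in each replicate, by log2 changes of −0.98, −0.74 and −0.84, and the mean of −0.85 was not called (limma adjusted p = 0.231). With replicate 3 as a batch term that drop was called for Ckb (limma adjusted p = 0.0088) and for Ckm (limma adjusted p = 0.036), where 2.57% of A probe sets were called. Without that term, 0 of the 10 members were called between 24 h and 48 h, with backgrounds of 0.0147% on A and 0.126% on B and 2 members at an unadjusted p under 0.05; the A chip array of replicate 3 at 24 h, when left out, gave 1 call. The rise of Ckb at 24 h was not called without A chip replicate 1 or 2 at 0 h or 24 h (limma adjusted p = 0.0535 to 0.105), nor in a fit of the 0 h and 24 h arrays alone (limma adjusted p = 0.0526).

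Smooth muscle also uses Ckb. The summed intensity of the smooth muscle markers ran from 13030 to 16260 at 0 h, from 16560 to 19550 at 4 h, from 16400 to 17250 at 12 h, from 18480 to 18660 at 24 h and from 10190 to 13400 at 48 h. Most of this sum was Acta2 (median 13459.6), with Tagln at 2291.9 and Smtn at 578.2. Of the 5 markers, Tagln (log2 change 0.87, limma adjusted p = 0.0108) and Smtn (1.13, limma adjusted p = 0.0479) rose at 24 h, and Acta2 (0.20, limma adjusted p = 0.482) was not called, while Myh11 (median 7.1) and Cnn1 (median 29.7) lay below the filter. Their part in the result was not tested.

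The promoter windows of Ckm and Ckb are shown because both genes rose at 24 h and were lower again at 48 h. That of Cox8b is shown as an example of a gene called at both hours. Mb, also called at both hours, is not shown. Each window is the 250 bases before the start site from RefSeq on GRCm38.p6, read in the direction of the gene. Capitals mark matches to the E-box CANNTG, the core bound by myogenic factors, and to CTANNNNTAG. The latter pattern takes in MEF2-type sites but allows any base at N. Of the 10 genes, 8 had a window in the table, with 15 starts in all, and Ampd1 and Cox6a2 had no entry. Both strands were searched, and CAGCTG is 1 form of CANNTG. Ckm lies at chr7:19410844-19411093 (+ strand), Ckb at chr12:111672339-111672588 (− strand) and Cox8b at chr7:140900447-140900696 (− strand).
Ckm: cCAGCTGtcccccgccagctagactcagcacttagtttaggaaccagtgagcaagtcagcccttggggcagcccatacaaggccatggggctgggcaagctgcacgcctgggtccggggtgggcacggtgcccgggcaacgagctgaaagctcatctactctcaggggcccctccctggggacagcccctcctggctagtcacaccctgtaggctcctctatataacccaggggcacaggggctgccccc
Ckb: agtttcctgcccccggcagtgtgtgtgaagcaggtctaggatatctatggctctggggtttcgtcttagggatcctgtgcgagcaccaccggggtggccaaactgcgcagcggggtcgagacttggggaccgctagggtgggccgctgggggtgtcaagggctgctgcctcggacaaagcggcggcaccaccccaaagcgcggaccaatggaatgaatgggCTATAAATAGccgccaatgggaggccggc
Cox8b: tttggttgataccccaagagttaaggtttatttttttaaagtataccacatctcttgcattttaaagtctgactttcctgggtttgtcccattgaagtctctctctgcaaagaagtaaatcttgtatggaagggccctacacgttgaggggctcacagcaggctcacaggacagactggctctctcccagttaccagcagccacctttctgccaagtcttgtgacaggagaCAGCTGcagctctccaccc

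Ckm holds 1 E-box, a CAGCTG that begins 249 bases before the start. Cox8b also holds 1 CAGCTG, beginning 19 bases before the start. Ckb holds no E-box and 1 CTANNNNTAG, beginning 29 bases before the start, with the letters CTATAAATAG. These letters contain TATAAA, and the match need not be a MEF2 site. Among 32851 promoter windows of this length, 66.2% hold CANNTG, 13% hold CAGCTG and 3.2% hold CTANNNNTAG. Among the members not shown, CAGCTG also occurs in windows of Mb and in windows of Ak1, which had no called change. The window of Ckmt2, which was not tested, holds it too. A match is a description of letters and not a measured site.

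Ckmt2, the mitochondrial creatine kinase of striated muscle, was dim throughout. Probe set 1428722_at read 3.1, 10.5 and 39.2 at 0 h and 37.3, 39.9 and 44.0 at 24 h. At 48 h it read 92.5, 87.6 and 36.5. Replicates 1 and 2 were at their highest at 48 h, above every other array of this probe set, whereas replicate 3 stayed between 31.4 and 44.0. The probe set was left out of the fit because its mean log2 value lay at percentile 19.8 of the A chip, below the upper 60%. Its mean intensity over the 15 arrays was 34.57, close to the pseudocount of 29.

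Ak1, the cytosolic adenylate kinase of muscle, brain and red cells, showed no called change. Probe set 1422184_a_at read 3839, 4201 and 2871 at 0 h, 4273, 4707 and 2977 at 24 h, and 3344, 3776 and 2215 at 48 h. Replicate 3 was the lowest array at every hour, and the hours overlapped. The log2 change was 0.12 (SE 0.23, limma adjusted p = 0.858) at 24 h and −0.24 (SE 0.23, limma adjusted p = 0.705) at 48 h, and the sign at 24 h turned without A chip replicate 3 at 0 h (−0.04) or replicate 2 at 24 h (−0.01). Over all hours Ak1 was lower in replicate 3 than in replicates 1 and 2 by a log2 difference of −0.52 (limma adjusted p = 5.23e-05). The dim Ak1 probe set, 1423988_at, stayed between 35.7 and 129.

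Ampd1 is the AMP deaminase of skeletal muscle, and its probe set 1434722_at on the B chip gave the widest spread among replicates. It read 171, 369 and 76.8 at 0 h, 586, 84.5 and 83.3 at 4 h, and 662, 803 and 35.6 at 12 h. At 24 h the readings were 1600, 1288 and 529, and at 48 h 1082, 903 and 44.7. All 3 arrays of 24 h lay above those of 0 h, and at 48 h replicate 3 was below every 0 h array while replicates 1 and 2 were above them. The log2 change of 2.23 (SE 0.96) at 24 h was as large as that of the called genes but was not called (limma adjusted p = 0.408). It was called with replicate 3 as a batch term (limma adjusted p = 0.031, background 4.12% on B) and in replicates 1 and 2 alone, at 2.27 (limma adjusted p = 0.0393, background 5.15%). Over all hours Ampd1 was lower in replicate 3 by a log2 difference of −2.05 (limma adjusted p = 0.00109).

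Ampd3, the AMP deaminase known from red cells and found in many tissues, was highest at 12 h on the A chip. Probe set 1422573_at read 301, 242 and 222 at 0 h, 528, 329 and 266 at 4 h, and 561, 496 and 356 at 12 h. It read 452, 328 and 144 at 24 h and 316, 244 and 274 at 48 h. The 12 h arrays lay above the 0 h arrays, with a log2 change of 0.80 (SE 0.32) that was not called (limma adjusted p = 0.722), and later hours overlapped 0 h. At 24 h and 48 h, where Ampd1 had log2 changes of 2.23 and 1.04, Ampd3 had 0.14 (limma adjusted p = 0.887) and 0.12 (limma adjusted p = 0.917), and the former turned to −0.18 without A chip replicate 1 at 24 h. These deaminases lie on different chips, so no test was made between them. Ampd3 too was lower in replicate 3 over all hours, by −0.53 (limma adjusted p = 0.0136). Ak1, Ampd1 and Ampd3 were the 3 members called in that comparison over all hours, 2 of 7 on A and 1 of 3 on B. The backgrounds were 33.9% on A and 14.8% on B. Other members differed by replicate in their rise, as given below. The count over all hours was 5 without the A chip array of replicate 3 at 48 h.

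Mb encodes myoglobin, the oxygen store of oxidative fibres and heart. Probe set 1451203_at read 1069, 1133 and 2579 at 0 h, 1275, 1255 and 2535 at 4 h, and 2430, 2382 and 4375 at 12 h. The readings were 6431, 6591 and 4939 at 24 h and 8094, 7019 and 2962 at 48 h. All arrays of 24 h and 48 h lay above those of 0 h, but replicate 3 at 48 h was only just above its own 0 h array. Mb rose by a log2 change of 2.00 (SE 0.41, limma adjusted p = 0.0188) at 24 h, from a mean of 1594 ± 854.4 (SD, n = 3) to 5987 ± 911.2, and by 1.90 (SE 0.41, limma adjusted p = 0.0286) at 48 h, to 6025 ± 2707. In replicates 1 and 2 alone the changes were 2.53 and 2.74. Neither call held without A chip replicate 1 or 2 at 0 h, the 24 h call was lost without replicate 1 or 2 at 24 h, and the 48 h call without replicate 1 or 2 at 48 h (limma adjusted p = 0.0789 to 0.16). The dim Mb probe set, 1422420_at, stayed between 27.6 and 141, and its 24 h arrays (73.1, 27.6 and 43.5) overlapped those of 0 h.

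**Figure D3:**
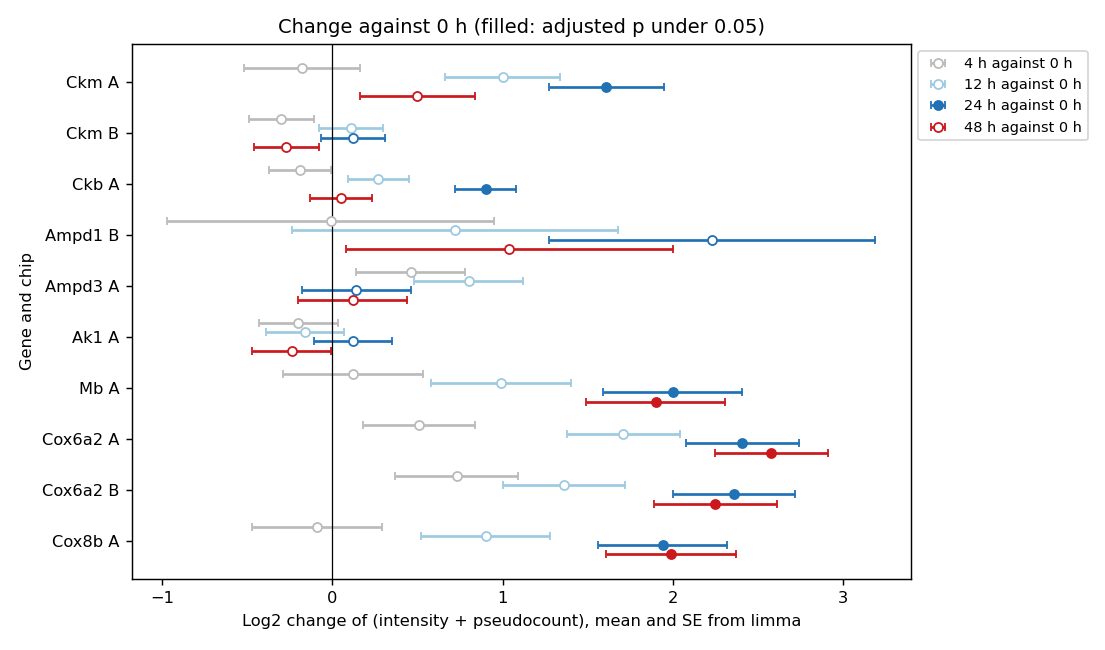
Log2 change of each tested probe set at 4, 12, 24 and 48 h against 0 h, with bars for the standard error of the limma fit and filled symbols where the adjusted p was under 0.05. At 24 h the filled symbols are Ckm on A, Ckb, Mb, Cox8b and both Cox6a2 probe sets, and at 48 h Mb, Cox8b and both Cox6a2 probe sets.

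Cox6a2 encodes the heart and skeletal muscle form of cytochrome oxidase subunit 6a, and it had the largest called change of the members. Its A chip probe set, 1417607_at, read 259, 275 and 658 at 0 h, 390, 461 and 820 at 4 h, and 1275, 1320 and 1164 at 12 h. It went on to 2276, 2281 and 1666 at 24 h and 3086, 2449 and 1619 at 48 h. From 12 h on, every array lay above every array of 0 h. The mean rose from 397.2 ± 225.9 (SD, n = 3) at 0 h to 2075 ± 353.8 at 24 h and 2384 ± 735.7 at 48 h, ratios of 5.22 and 6. The log2 change was 2.41 (SE 0.33, limma adjusted p = 0.00333) at 24 h and 2.58 (SE 0.33, limma adjusted p = 0.00227) at 48 h, and both calls were kept when any 1 array was left out. In replicates 1 and 2 alone the changes were 2.96 and 3.23. At 12 h the change of 1.71 (SE 0.33) was not called (limma adjusted p = 0.215), but it was with replicate 3 as a batch term (limma adjusted p = 0.0139, background 1.05% on A).

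A further Cox6a2 probe set, 1457633_x_at on the B chip, followed the same course, unlike the pair for Ckm. The suffix marks probes that may also bind other transcripts. It read 144, 315 and 548 at 0 h, 388, 450 and 839 at 4 h, 1047, 609 and 958 at 12 h, 1925, 1903 and 1488 at 24 h, and 1725, 2000 and 1242 at 48 h. Every array from 12 h on was above those of 0 h here as well. Its log2 change was 2.36 (SE 0.36, limma adjusted p = 0.00575) at 24 h and 2.25 (SE 0.36, limma adjusted p = 0.00997) at 48 h, or 2.86 and 2.82 in replicates 1 and 2 alone. The call at 48 h was lost without B chip replicate 1 or 2 at 0 h or replicate 2 at 48 h (limma adjusted p = 0.0507 to 0.0663), and in a fit of the 0 h and 48 h arrays alone (limma adjusted p = 0.0555).

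Cox8b, the muscle and brown fat form of subunit 8, read 229, 185 and 507 at 0 h on the A chip probe set 1449218_at. The readings were 199, 250 and 353 at 4 h and 592, 423 and 659 at 12 h. They were 1325, 1317 and 878 at 24 h and 1721, 1586 and 622 at 48 h. Both late hours lay above 0 h without overlap, with replicate 3 the lowest at each. The mean went from 306.8 ± 174.4 (SD, n = 3) to 1173 ± 255.9 at 24 h and 1309 ± 599.4 at 48 h. Cox8b rose by a log2 change of 1.94 (SE 0.38, limma adjusted p = 0.0167) at 24 h and 1.99 (SE 0.38, limma adjusted p = 0.0173) at 48 h, and by 2.52 and 2.84 in replicates 1 and 2 alone. Without A chip replicate 1 or 2 at 0 h, at 24 h or at 48 h the call that used that array was lost (limma adjusted p = 0.0673 to 0.114). For 48 h, fits of the 0 h and 48 h arrays alone also lost the calls of Cox8b (limma adjusted p = 0.109) and Mb (limma adjusted p = 0.115). Of the 5 brown fat markers, 3 passed the filter and none of these was called at 24 h or 48 h by limma (0 at an unadjusted p under 0.05), while Ucp1 and Cidea lay below it. Their part in the result was not tested.

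Cox7a1, the muscle form of subunit 7a, was dim. Probe set 1418709_at read 58.3, 61.2 and 63.6 at 0 h, 107, 144 and 65.8 at 24 h, and 113, 103 and 75.7 at 48 h. The arrays of both late hours lay above those of 0 h, by 1.73 and 1.59 times in the mean. At 4 h and 12 h replicate 3 was at 27.3 and 29.6, below its later readings.

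The muscle forms were then set against the general forms within each array, as the difference of their log2 values, and the 6 differences of 24 h and 48 h were compared with the 6 of 0 h and 4 h by a two-sided exact permutation test over all splits, with Benjamini-Hochberg adjustment over the 6 pairs that share a chip. The smallest p this test allows is 0.00216. Cox6a2 minus Cox6a1 rose by 2.48 (exact permutation p = 0.00216, adjusted 0.00649), from −4.43 ± 0.64 (SD, n = 6) early to −1.95 ± 0.41 late. Cox6a2 itself changed by 2.24 and Cox6a1 by −0.24. Cox8b minus Cox8a rose by 2.36 (exact permutation p = 0.00216, adjusted 0.00649), from −4.66 ± 0.66 early to −2.3 ± 0.3 late. Here Cox8b changed by 2.01 and Cox8a by −0.35. In both pairs the probe set of the muscle form stayed dimmer than that of the general form, and the gap narrowed. In neither pair did early and late arrays overlap.

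The pair of Cox7a1 and Cox7a2 gave 0.67 (exact permutation p = 0.00866, adjusted 0.0162), with a slight overlap of early and late arrays. Ckmt2 against Ckmt1 gave 0.94 (exact permutation p = 0.0108, adjusted 0.0162), and the arrays overlapped here too. Ckmt2, Ckmt1 and Cox7a1 all lie below the filter and are not shown to be above background, so neither pair is read as a change in isoform. The sizes follow the pseudocount: over the alternatives the former pair ran from 0.41 to 0.89 and the latter from 0.39 to 2.02.

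For the cytosolic creatine kinases the shift of Ckm against Ckb was 0.57 (exact permutation p = 0.0736, adjusted 0.0883), from −1.25 ± 0.67 (SD, n = 6) early to −0.68 ± 0.24 late, because Ckm and Ckb both went up, by 1.15 and 0.57. In replicates 1 and 2 alone it was 0.89 (exact permutation, adjusted p = 0.0343), and without the A chip array of replicate 3 at 4 h it was 0.77 (exact permutation, adjusted p = 0.0182). Ckmt2 against Ckb gave 0.31 (exact permutation p = 0.416, adjusted 0.416).

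**Figure D4:**
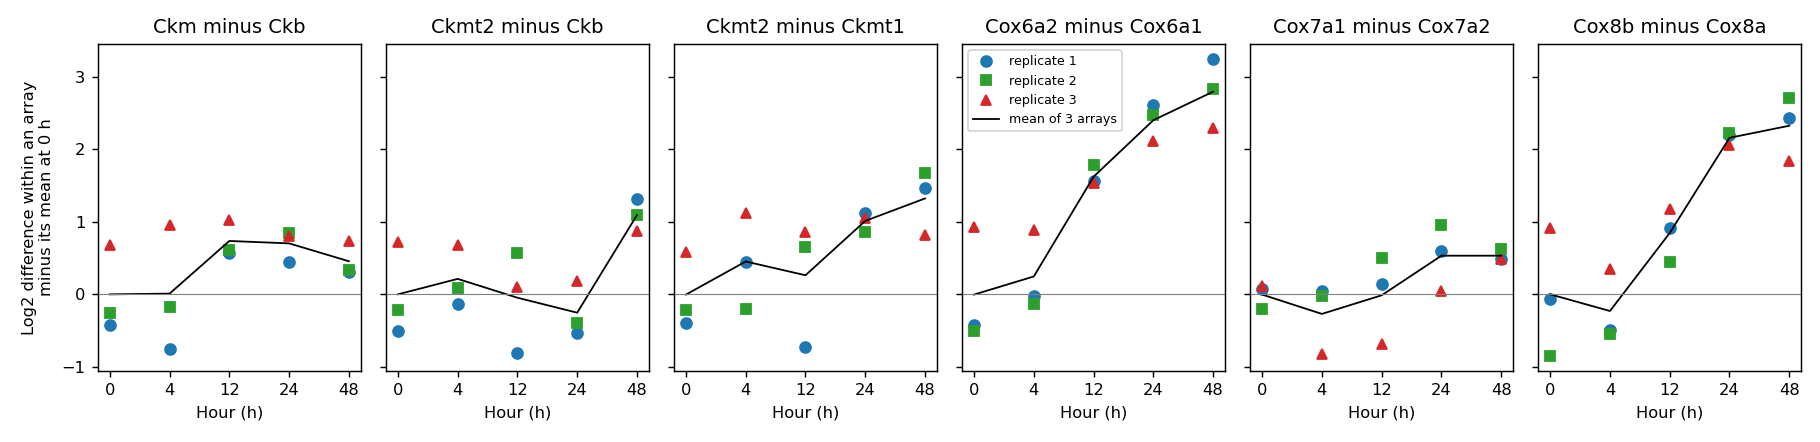
Log2 difference between muscle and general form within each A chip array, minus the mean of the 0 h arrays, at each hour for 6 pairs, with a symbol per replicate and a line through the mean. Cox6a2 over Cox6a1 and Cox8b over Cox8a climb past 2 by 24 h in all replicates, and Ckm over Ckb stays at or below 1.03.

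Apart from Ckb, which rose at 24 h as given above, the general forms that were tested showed no called change at 24 h or 48 h. Of the 5 counterparts Ckmt1, Ampd2, Cox6a1, Cox7a2 and Cox8a, 4 were tested, and 0 of 4 were called at 24 h or 48 h by limma, with 0 and 1 at an unadjusted p under 0.05 and 0 called in replicates 1 and 2 alone. Their median log2 change was −0.06 at 24 h and −0.21 at 48 h. Cox6a1 was at 9188 ± 864.1 (SD, n = 3), 9226 ± 429.1 and 7851 ± 214.1 at 0, 24 and 48 h, and Cox8a at 7296 ± 1496, 6210 ± 1010 and 5831 ± 1667. Ampd2, a deaminase of many tissues, had log2 changes of −0.12 (limma adjusted p = 0.911) and −0.20 (limma adjusted p = 0.863). By contrast, of the 7 muscle-form genes among the members 5 were tested, each read from 1 probe set. Of these, 4 rose at 24 h and 3 at 48 h, with median log2 changes of 2.00 and 1.90. Over all tested A probe sets, 2.67% and 2.15% were called at these hours, 1.61% and 1.42% as higher. On B, 0.851% and 1.13% were called, 0.592% and 0.666% as higher. The B chip probe sets of Ckm (0.12 at 24 h, limma adjusted p = 0.893) and Cox6a2 (2.36, limma adjusted p = 0.00575) are outside this count.

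Between neighbouring hours, limma called 0 of the 10 members over all arrays from 4 h to 12 h and from 12 h to 24 h, where 0% of the probe sets of either chip were called and 5 and 4 members had an unadjusted p under 0.05. In replicates 1 and 2 alone, 4 members rose from 4 h to 12 h (backgrounds 1.44% on A and 0.111% on B), all on A: Cox6a2 by a log2 change of 1.55 (limma adjusted p = 0.000855), Ckm by 1.46 (limma adjusted p = 0.00115), Cox8b by 1.07 (limma adjusted p = 0.0161) and Mb by 0.91 (limma adjusted p = 0.00416). From 12 h to 24 h 5 rose in those replicates (backgrounds 2.7% on A and 1.1% on B), again all on A: Mb by 1.43, Cox8b by 1.35, Ckm by 0.92, Ckb by 0.86 and Cox6a2 by 0.80. From 24 h to 48 h 2 fell in them, with log2 changes of −1.19 for Ckm and −0.86 for Ckb (backgrounds 4.63% on A and 3.84% on B). For Ckb the step from 4 h to 12 h was 0.40 in these replicates (limma adjusted p = 0.231).

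After 24 h the members parted, most clearly in replicates 1 and 2. Relative to Cox6a2 in the same array, Ckm changed by log2 differences of −1.55, −1.37 and −0.88 from 24 h to 48 h in replicates 1, 2 and 3, and Ckb by −1.41, −0.84 and −0.80. Relative to Cox8b, Ckm changed by −1.49, −1.53 and −0.45 and Ckb by −1.35, −1 and −0.37. Against Mb the values were −1.45, −1.36 and −0.19 for Ckm and −1.31, −0.83 and −0.11 for Ckb. In replicate 3, Mb (−0.73), Cox8b (−0.48) and Cox6a2 (−0.04) were themselves lower at 48 h than at 24 h, beside Ckm (−0.92) and Ckb (−0.84). The direction of each contrast was the same in all replicates, and the size was smallest in replicate 3. These contrasts were chosen after their values were seen, so no test is read from them. An exact permutation of 3 against 3 arrays gave p = 0.1 for each, the smallest it allows.

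Replicate 3 also rose less. The change from the mean of 0 h and 4 h to the mean of 24 h and 48 h was 2.95, 2.63 and 1.13 for Cox6a2 on A in replicates 1, 2 and 3, 2.60, 2.48 and 0.58 for Mb, and 2.67, 2.59 and 0.76 for Cox8b. In a limma fit of that difference, 3 of the 10 members were called, all with the smaller rise in replicate 3: Cox6a2 on A (limma adjusted p = 0.00714), Mb (limma adjusted p = 0.0013) and Cox8b (limma adjusted p = 0.00223), beside backgrounds of 1.02% on A (0.412% with the smaller rise in replicate 3) and 0.178% on B (0.133%). For Ckm on A the changes were 1.57, 1.65 and 0.22, and the difference of −1.39 was not called (limma adjusted p = 0.218). The Cox6a2 probe set on B had 2.67, 2.22 and 0.95 (limma adjusted p = 0.251). Without the A chip array of replicate 3 at 4 h or at 48 h, 2 members were called. In each of these genes, replicate 3 was the highest array at 0 h.

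**Figure D5:**
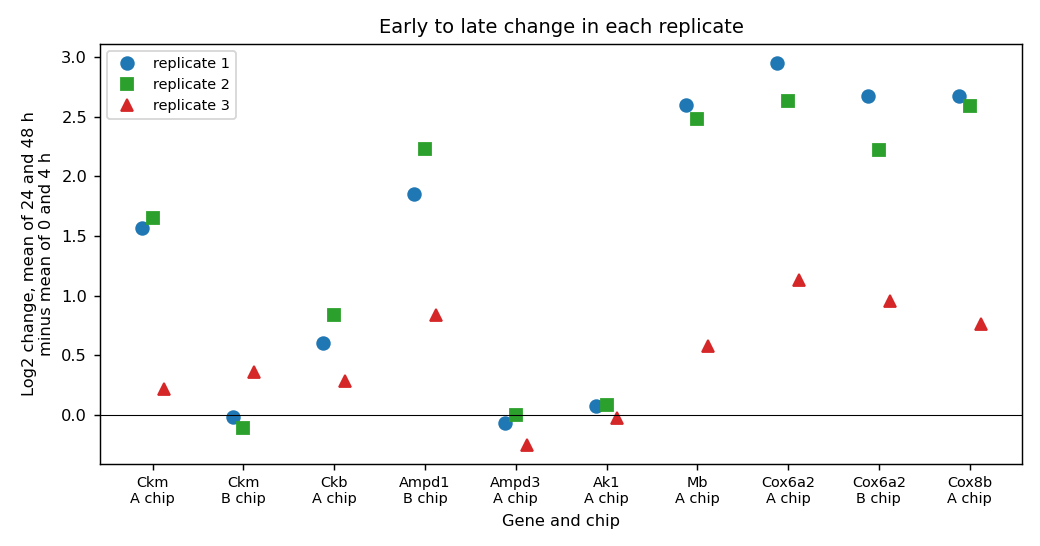
Log2 change from the mean of 0 h and 4 h to the mean of 24 h and 48 h in each replicate for the 10 tested probe sets. For Mb, Cox6a2 on both chips, Cox8b and Ckm on A the triangles of replicate 3 lie below both other replicates by more than 1, and Ak1 and Ampd3 lie near 0 in all 3.

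The genes whose course over the 15 A chip arrays was most like that of Ckm, by Pearson correlation after centring on each replicate number, were Tmem38a (0.966), Scrib (0.951), Rassf7 (0.943), Tor3a (0.941) and Svil (0.937), among 13575 probe sets. Tmem38a, a channel of the sarcoplasmic reticulum, had means of 751.2, 762.6, 1140, 1491 and 1005 over the 5 hours. Among the members, Ckb came at rank 30 (0.903), followed by Mb (0.796), Cox8b (0.773), Cox6a2 (0.768), Ak1 (0.474) and Ampd3 (0.137). The arrays share hour and replicate, so these values are a description.

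Creatine itself is made by Gatm and Gamt and taken up through Slc6a8, and 1 of these 3 genes was called at 24 h. All 3 were read on A, where 2.67% of all tested probe sets were called. Gatm, which makes guanidinoacetate in the committed step, rose from 641.7 ± 64.8 (SD, n = 3) to 1587 ± 323.4, a log2 change of 1.25 (SE 0.25, limma adjusted p = 0.0155), and stood at 866.8 ± 319.7 at 48 h (0.35, limma adjusted p = 0.566). It thus shared the 24 h high of Ckm and Ckb. The call was lost without A chip replicate 2 at 0 h or replicate 1 or 2 at 24 h (limma adjusted p = 0.0822 to 0.0945). Gamt had a log2 change of 0.29 (limma adjusted p = 0.509) and Slc6a8 of −0.10 (limma adjusted p = 0.905).

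Of 16 further genes of adenine nucleotide turnover and transport, all tested, 1 rose and 1 fell at 24 h, with a median log2 change of 0. Over all tested probe sets, 2.67% on A and 0.851% on B were called at that hour. Adssl1, the muscle adenylosuccinate synthase that works with AMP deaminase in the purine nucleotide cycle, rose from 371.1 ± 50.66 (SD, n = 3) to 964.2 ± 364.9 (log2 change 1.24, SE 0.28, limma adjusted p = 0.0269) and was at 723.8 ± 169.9 at 48 h (0.90, limma adjusted p = 0.127). Its widely used counterpart Adss went the other way, from 2002 ± 351.2 to 1457 ± 470.4 (log2 change −0.48, limma adjusted p = 0.283), without a call. Aprt, which salvages adenine, fell from 3845 ± 651.5 to 2354 ± 366.3 (log2 change −0.70, limma adjusted p = 0.0423). The Adssl1 call was lost without A chip replicate 1 or 2 at 0 h or 24 h (limma adjusted p = 0.0996 to 0.163) and in a fit of the 0 h and 24 h arrays alone (0.0932), and that of Aprt under 4 of 13 alternatives and without A chip replicate 2 or 3 at 0 h or replicate 1 or 2 at 12 h, 24 h or 48 h (limma adjusted p = 0.0533 to 0.207). At 48 h limma called 0 of the 16, with 3 at an unadjusted p under 0.05 and 2 called with replicate 3 as a batch term, where 9.79% of all probe sets were called on A and 5.25% on B.

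The remaining nuclear cytochrome oxidase genes did not follow Cox6a2 and Cox8b. Of 18 listed, 16 were tested, and limma called 0 at 24 h (2 at an unadjusted p under 0.05, 1 with replicate 3 as a batch term) and 0 at 48 h (0 at an unadjusted p under 0.05). The backgrounds were 2.67% and 2.15% on A and 0.851% and 1.13% on B, and with the batch term at 24 h 13% and 4.12%. The median log2 change of the 16 was 0.08 and 0. The smallest p at 24 h belonged to Sco1, a copper chaperone of the complex, at 1228 ± 162.6 (SD, n = 3) and 1864 ± 304.2 (log2 change 0.58, limma adjusted p = 0.275), and to Cox17, a further copper chaperone (0.35, limma adjusted p = 0.271).

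Among 12 regulators of mitochondrial and energy metabolism, limma called 0 at 24 h (1 at an unadjusted p under 0.05, 1 with replicate 3 as a batch term) and 1 at 48 h. The backgrounds were 2.67% and 2.15% on A and 0.851% and 1.13% on B, and with the batch term at 24 h 13% and 4.12%. Prkaa2, the catalytic AMPK subunit that prevails in skeletal muscle, was at 1419 ± 688.9 (SD, n = 3) at 0 h, 3418 ± 467.7 at 24 h and 3537 ± 634.7 at 48 h. On the B chip it rose at 48 h by a log2 change of 1.36 (SE 0.30, limma adjusted p = 0.042), while 1.32 at 24 h was just outside the threshold (limma adjusted p = 0.0553). The 48 h call was lost without any 1 of B chip replicates 1 and 2 at 0, 4, 24 or 48 h or replicate 2 at 12 h (limma adjusted p = 0.0515 to 0.188) and under 3 of 13 alternatives, and the 24 h change was called without replicate 3 at 0, 12 or 48 h. Ppargc1a, the coactivator of mitochondrial biogenesis, had 0.29 at 48 h (limma adjusted p = 0.656). The median log2 change of the 12 was 0.01 at both hours.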

How the data were processed

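RNA of mouse leg muscle cell cultures was measured on 15 A and 15 B chip arrays, 3 per hour, with hour, chip and replicate number taken from the sample titles. What the authors deposited is an intensity on a linear scale for each probe set and array, from the manufacturer's standard protocol, per the labels. How probes were summarised, with which software and build, and the detection calls were not given in the sources used here. The trimmed means of the deposited intensities (2% cut at each end) lay within 500.15 and 500.18 on A and within 500.08 and 500.11 on B, so each array had been scaled to 1 level and was not scaled again, and changes in the RNA content of cells cannot be seen. With 3 arrays per hour, their number sets the precision.

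Genes came from the platform annotation, with symbols checked against RefSeq, which changed 0. Probe sets in the upper 60% by mean intensity were tested, 13576 on A and 13507 on B. Values were log2 of intensity plus the chip's 20th percentile (29 on A, 54 on B), which understates changes of dim probe sets. Hours were compared in 1 fit per chip in limma 3.58.1 (R 4.3.3, lmFit and eBayes with an intensity trend), with Benjamini-Hochberg adjustment over all tested probe sets. Replicate 3 against replicates 1 and 2 was fitted with hour as a factor. Every listed gene outside the members was tested by its brightest tested probe set on A, or on B where A had none tested. The pairs and the marker intensities used the brightest A chip probe set of each gene, tested or not. In a test on simulated data for 48 h against 0 h, 59% of 2-fold and 94% of 4-fold changes were recovered among 13576 A probe sets, and 33% and 91% among 13507 on B. The changes were placed only in brighter probe sets, so these shares do not cover dim ones. Replicate 3 differed there by a constant shift, so a smaller rise in replicate 3 was not simulated.

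All probe sets of the 10 genes are reported. Of the further lists (general counterparts, creatine supply, adenine nucleotide enzymes, other cytochrome oxidase genes, regulators), counts and up to 3 genes with the smallest adjusted p at 24 h or 48 h are named, and the 5 A chip genes most like Ckm. The genes and lists were chosen with earlier results of these data known. Alternatives were the normalization, pseudocount, filter, fit, array weights, replicate block, replicate 3 as a batch term or left out, and each array left out.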

Additional observations from a re-analysis of the deposited data

Results flagged for a closer look

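The rise from the early hours (0 h and 4 h) to the late hours (24 h and 48 h) differed between replicate 3 and replicates 1 and 2 by a limma test of that difference for 3 A chip probe sets. The difference, replicate 3 minus replicates 1 and 2, was −1.66 on the log2 scale for Cox6a2, −1.87 for Cox8b and −1.97 for Mb. All 3 rose in every replicate, and what sets replicate 3 apart was not tested.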

How the results depend on the processing

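The titles give no meaning to the replicate numbers, and same-numbered arrays did not all deviate together from the hour means: the lowest correlation was 0.04 on A and 0 on B for replicate 1, 0.12 and 0.04 for replicate 2, and 0.48 and 0.23 for replicate 3. The numbers were therefore not taken to pair the arrays, and changes by number in the text are descriptions. With the replicate block, 1 member was called at 12 h against 0 h and 2 at 48 h against 24 h, Ampd1 was called at 24 h (limma adjusted p = 0.0399), and Ckm against Ckb had 0.57 (exact permutation, adjusted p = 0.0444).

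At 24 h against 0 h the count of 6 members ran from 5 to 7 over 14 alternatives and from 2 to 6 with 1 array left out. At 48 h against 0 h the 4 became 1 when only the hours compared were fitted and 2 to 4 with 1 array left out. The count over all hours (F test, 6) ran from 3 to 6 with 1 array left out, being 3 without A chip replicates 1 or 2 at 0 h or 24 h, replicate 2 at 4 h or replicate 1 at 48 h. At 12 h against 0 h the count was 1 with replicate 3 as a batch term or array quality weights and 5 in replicates 1 and 2 alone, which also gave 4 at 12 h against 4 h, 5 at 24 h against 12 h and 2 at 48 h against 24 h. Array quality weights gave 5 at 24 h against 12 h and 2 at 48 h against 24 h, the batch term gave 2 there, and leaving out 1 array gave 0 to 1. Replicate 3 against the others had 1 call at 2-fold or more and 3 to 5 with 1 array left out.

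Signs of uncalled changes turned for Ckm on B at 24 h (−0.03 in replicates 1 and 2 alone, −0.01 to 0.26 with 1 array left out), for Ckb at 48 h (−0.01 with median centring, −0.08 to 0.23 with 1 array left out, 0 without A chip replicate 1 at 48 h), and with 1 array left out at 24 h for Ak1 (−0.04 to 0.32, and −0.01) and Ampd3 (−0.18 to 0.56). Ckm against Ckb was 0.89 in replicates 1 and 2 alone and 0.42 to 0.77 with 1 array left out. Ckmt2 against Ckb was −0.19 with 4 times the pseudocount. With 48 h against 0 h alone, Ckmt2 against Ckmt1 was 1.32, Cox6a2 against Cox6a1 2.8, Cox7a1 against Cox7a2 0.53 and Cox8b against Cox8a 2.33, each with an adjusted exact permutation p of 0.12, where 3 against 3 arrays allow no p below 0.1. The cause of these shifts was not tested. Detection calls were not used here, so intensities near the pseudocount (Ckmt2, Cox7a1) have no stated limit of detection.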
